A study of Homo sapiens with 24 samples.

Results

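The subject is 5 genes of nicotinamide adenine dinucleotide (NAD) metabolism, followed as messenger RNA in 2 leukaemia cell lines. They were chosen by name as the NAD-consuming ectoenzyme genes CD38 and BST1 and the NAD salvage genes NAMPT, NMNAT1 and NAPRT, and all 5 were found among the 60655 genes of the deposited count table. The study set transcription after differentiation treatment and after the drug pair in acute promyelocytic leukaemia (APL) cells beside that in other acute myeloid leukaemia cells. Its 8 groups hold 3 libraries each. NB4, an APL line, and HL-60, labelled a promyeloblast line, were each grown with all-trans retinoic acid (ATRA) plus arsenic trioxide (ATO), with ATRA alone at 1 µM, with ATO alone at 0.8 µM, or left untreated. All groups are labelled wild type and were kept in the same serum-supplemented medium. Treated cells were harvested at 48 h. The labels give neither the culture time of untreated cells nor separate doses for the pair of drugs. The 3 libraries of a group carry batch numbers, with no word on whether these were separate cultures; p-values therefore measure the spread between these samples, which may be technical.

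NAD carries electrons in metabolism and is also broken down as a substrate by signalling enzymes. CD38 and its relative BST1 (CD157) sit on the cell surface and cleave NAD, releasing nicotinamide and, in part, cyclic ADP-ribose, a calcium-mobilising messenger. Nicotinamide is rebuilt into NAD by NAMPT, the rate-limiting phosphoribosyltransferase of salvage, and by the NMNAT enzymes, of which NMNAT1 is the nuclear one, while NAPRT starts a parallel route from nicotinic acid. CD38 is a classic retinoid-induced surface antigen of myeloid leukaemia cells, and BST1 is a glycolipid-anchored antigen of the monocyte and neutrophil lineage.

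Levels below are CPM, a gene's reads relative to the size of its library, scaled by the trimmed mean of M values (TMM) over all 24 libraries, with the SD over the 3 libraries of a group. Changes are log2 ratios ± SE from edgeR's quasi-likelihood test, called where the Benjamini-Hochberg adjusted p over all genes tested lay below 0.05. Library totals ran from 37811652 to 57795273 counts. NB4 ATRA replicate 2 and HL-60 ATRA plus ATO replicate 2 stood apart from their 2 partners, so results that turn on them are given without them as well. Because RNA was bulk, fewer cells of a type and less RNA per cell cannot be told apart. All 5 genes passed the filter on low counts in both lines, BST1 in NB4 with only 8 to 54 reads per library.

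CD38 and BST1 are neighbours on chromosome 4. On GRCh38 with GENCODE v29, BST1 occupies chr4:15702950-15738313 and CD38 chr4:15778275-15853230, both on the plus strand, with 39961 bases between the end of BST1 and the start of CD38. Their coding sequences, 900 bases in CD38 and 954 in BST1, aligned over 846 bases with 452 identical (53.4%). The longest identical run was 9 bases, far below the 150-base reads, so reads from the coding sequences are not readily confused. The remaining exon bases (exons span 6855 bases in CD38 and 2980 in BST1) were not compared. The most alike ungapped stretch of 60 bases is shown because it is where a mix-up between the relatives would be likeliest. It lies in exon 1 of each gene (GENCODE v29 transcripts, plus strand, chr4:15778548-15778607 for CD38 and chr4:15703230-15703289 for BST1), and capitals mark the 40 bases that are identical (66.7%).
CD38: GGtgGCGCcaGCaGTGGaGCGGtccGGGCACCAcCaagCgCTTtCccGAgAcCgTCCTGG
BST1: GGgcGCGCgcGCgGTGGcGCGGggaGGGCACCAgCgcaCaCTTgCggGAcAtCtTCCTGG
FAM200B overlaps the start of BST1 on the same strand and held 222 to 595 reads per library, so part of a low BST1 count could belong to it.

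The 197 bases before the CD38 start are shown because ATRA acts through nuclear retinoid receptors and CD38 had the steepest ATRA response of the 5 genes. The sequence is RefSeq's on GRCh38.p14, plus strand, chr4:15778078-15778274, and capitals mark a GGGTCA hexamer 81 bases before the start and ATTGG, the reverse complement of CCAAT, 36 bases before it.
CD38 upstream: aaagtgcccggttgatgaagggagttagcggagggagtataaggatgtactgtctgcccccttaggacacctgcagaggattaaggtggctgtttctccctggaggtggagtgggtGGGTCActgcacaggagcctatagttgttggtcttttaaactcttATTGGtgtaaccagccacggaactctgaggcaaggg
Such words are common. On either strand, 33.8% of 35116 upstream windows of 250 bases held at least 1 receptor hexamer, meaning AGGTCA or a variant with another first base (GGGTCA as in CD38), another base in the middle (AGTTCA in letters) or both changes (written GGTTCA). The CCAAT word was in 32.0%. RefSeq upstream windows were matched for 3 of the 5 genes. The NAMPT window held 1 receptor hexamer, no CCAAT, 3 GGGCGG words (42.6% of windows held any) and 1 TGACNNNGC word (10.9%). The NMNAT1 window held no receptor hexamer, 1 CCAAT and 1 GGGCGG. A match is a description of letters and not a binding site.

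Most of the 5 genes were called in most comparisons, as were many genes of these transcriptomes. In NB4, ATRA plus ATO against untreated gave 4 higher (35.4% of the 16370 genes tested were higher) and 0 lower (32.8% lower), with 68.2% of all genes called either way. ATRA gave 4 higher (31.3%) and 0 lower (28.6%) of 59.9% called, and ATO 1 higher (21.2%) and 0 lower (19.6%) of 40.8%. In HL-60, ATRA plus ATO gave 4 higher (30.7% of the 15895 genes tested) and 1 lower (29.7%), with 60.4% called either way. ATRA gave 3 higher (25.2%) and 1 lower (23.3%) of 48.6% called, and ATO 3 higher (16.5%) and 1 lower (12.1%) of 28.7%. With backgrounds of this size the count of called members does not set the 5 genes apart, and the description rests on sizes and directions.

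CD38 had by far the largest changes of the 5 genes and was the only one to rise over 4-fold against untreated cells, which it did in each ATRA-containing group. In NB4 it stood at 632, 651 and 687 CPM with ATRA plus ATO, at 588, 575 and 599 CPM with ATRA, at 80.3, 85.4 and 79.2 CPM with ATO, and at 88.3, 86.7 and 85.3 CPM in untreated cells. Both ATRA-containing groups lay wholly above the others, whereas the ATO and untreated ranges overlapped. The change against untreated was 2.91 ± 0.0599 with ATRA plus ATO (7.53-fold, adjusted p = 1.49e-20), 2.78 ± 0.0596 with ATRA (6.87-fold, adjusted p = 3.45e-20) and -0.10 ± 0.0568 with ATO (adjusted p = 0.163, not called). Within the 3 batches the ATRA difference ran from 2.73 to 2.81.

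HL-60 cells began from a lower CD38 level. They held 146, 142 and 150 CPM with ATRA plus ATO, 253, 258 and 259 CPM with ATRA, 14.3, 14.5 and 11.4 CPM with ATO, and 16.2, 18.1 and 16.1 CPM untreated. All 4 ranges were apart, with ATRA alone highest and ATO lowest. CD38 rose by 3.13 ± 0.0724 with ATRA plus ATO (8.76-fold, adjusted p = 4.05e-20) and by 3.94 ± 0.0738 with ATRA (15.3-fold, adjusted p = 2.18e-21), and fell by 0.32 with ATO (adjusted p = 0.00329). CD38 in untreated NB4 was 5.16-fold that in untreated HL-60 (log2 2.37 ± 0.0664, adjusted p = 6.32e-24), and with ATRA it averaged 587 ± 12.0 CPM in NB4 and 257 ± 3.22 CPM in HL-60 (SD, n = 3 each).

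Adding ATO to ATRA went with different CD38 levels in the 2 lines. Whether the pair held ATRA at the dose used alone is not in the labels, so a dose difference cannot be told apart from added ATO. In HL-60, CD38 was lower with ATRA plus ATO than with ATRA alone, by -0.81 ± 0.0633 (0.571-fold, adjusted p = 5.85e-10, batch values from -0.87 to -0.79). In NB4 the same comparison gave 0.13 ± 0.0553 and missed the threshold (adjusted p = 0.0647), although the ranges did not overlap. This NB4 comparison stayed uncalled in 4 of 11 alternative settings and in 7 of 12 fits with a library left out (adjusted p up to 0.0957 and 0.122). The call was made with DESeq2 (0.15, adjusted p = 0.016), limma-voom (0.13, 0.0347), DESeq2 size factors (0.15, 0.0338) and a filter of 1 CPM (0.17, 0.0137). Halved counts (0.16, 0.0218) and a fit of all 24 libraries (0.16, 0.0304) made it too. The call was also made without NB4 ATRA plus ATO replicate 1 (0.18, adjusted p = 0.0294), ATRA replicate 3 (0.16, adjusted p = 0.0464) or any 1 untreated library (0.15 each, adjusted p from 0.0433 to 0.0457). With library sizes alone, which moved the median NB4 gene by 0.144 here, CD38 was at 0.28 (adjusted p = 0.000315). The difference between the lines, tested in a comparison added after the data were seen, was 0.98 ± 0.0832 (adjusted p = 1.03e-10).

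**Figure D1:**
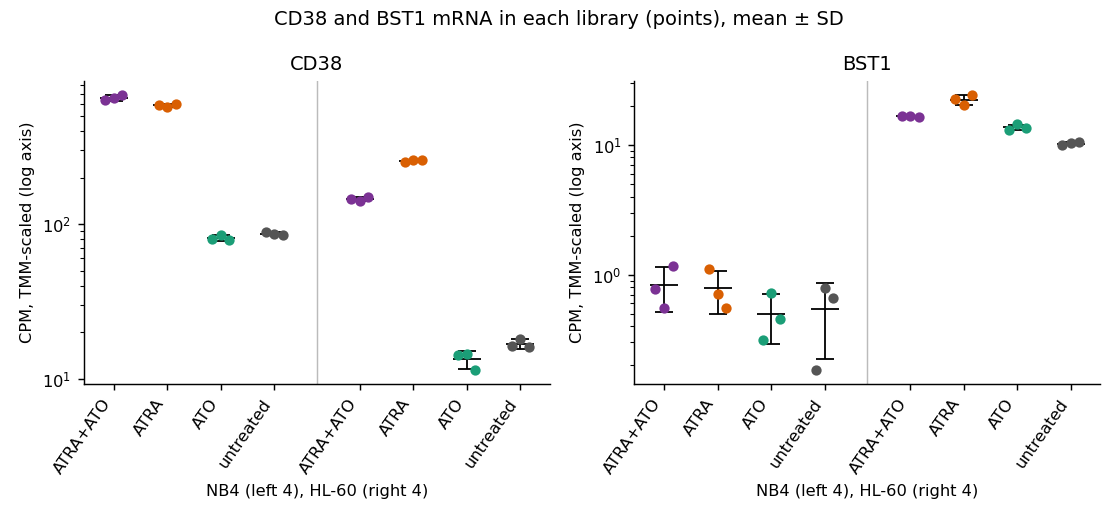
CD38 (left) and BST1 (right) in CPM on log axes for each of the 24 libraries (points) with group means and SDs (bars), NB4 groups in the left 4 positions and HL-60 groups in the right 4. CD38 is high in all ATRA-containing libraries, between 575 and 687 CPM in NB4 and between 142 and 259 CPM in HL-60, whereas BST1 separates the lines, with no NB4 library above 1.17 CPM.

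BST1 was nearly confined to HL-60. NB4 libraries held 0.77, 0.554 and 1.17 CPM with ATRA plus ATO, 1.10, 0.705 and 0.548 CPM with ATRA, 0.314, 0.726 and 0.456 CPM with ATO, and 0.184, 0.794 and 0.656 CPM untreated. Every pair of NB4 ranges overlapped. No NB4 comparison was called, and the change with ATRA, 0.54 ± 0.488 (adjusted p = 0.357), was not detectable at this depth. The 3 batches gave 2.33, -0.16 and -0.24, and the value was 0.12 without untreated replicate 1 and 0.89 without untreated replicate 2.

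In HL-60, BST1 stood at 16.6, 16.7 and 16.5 CPM with ATRA plus ATO, 22.4, 20.1 and 24.3 CPM with ATRA, 13.0, 14.4 and 13.5 CPM with ATO, and 9.996, 10.3 and 10.4 CPM untreated. The 4 ranges were apart. BST1 rose by 0.71 ± 0.0888 with ATRA plus ATO (adjusted p = 3.19e-07), by 1.13 ± 0.0873 with ATRA (2.18-fold, adjusted p = 2.52e-10) and by 0.42 ± 0.0886 with ATO (adjusted p = 0.000858). With ATRA plus ATO it was lower than with ATRA alone, by -0.41 ± 0.0851 (adjusted p = 0.000365), and higher than with ATO alone, by 0.29 ± 0.0868 (adjusted p = 0.00734). The ATO call and the last 2 were lost in a fit of all 24 libraries (adjusted p = 0.0929, 0.0517 and 0.186), with log2 changes of 0.41, -0.42 and 0.28, and the last was 0.19 (adjusted p = 0.074) with library sizes alone. Untreated NB4 held 0.0536-fold the BST1 of untreated HL-60 (log2 -4.22 ± 0.247, adjusted p = 9.94e-16).

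Set against each other per base of annotated exon (6855 bases for CD38 and 2980 for BST1 in GENCODE v29), the 2 ectoenzyme transcripts had different weights in the lines. In NB4 the CD38 level exceeded that of BST1 374 ± 129-fold with ATRA plus ATO, 354 ± 122-fold with ATRA, 79.2 ± 30.1-fold with ATO and 104 ± 90.8-fold untreated, ratios that rest on few BST1 reads. In HL-60 the ratio was 3.82 ± 0.137 with ATRA plus ATO, 5.04 ± 0.484 with ATRA, 0.427 ± 0.0555 with ATO and 0.713 ± 0.0483 untreated. Per exon base, BST1 had the higher level in HL-60 cells without ATRA, and CD38 in those with it.

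NAMPT, at chr7:106248285-106286326 on the minus strand, moved in opposite directions in the lines after ATRA. NB4 held 121, 129.8 and 168 CPM with ATRA plus ATO, 150.4, 168 and 167 CPM with ATRA, 92.2, 98.3 and 102 CPM with ATO, and 89.0, 93.4 and 87.1 CPM untreated. The ATRA-containing libraries were above all untreated ones, and replicate 3 was the highest of the ATRA plus ATO group. NAMPT rose by 0.63 ± 0.0902 with ATRA plus ATO (adjusted p = 2.19e-06) and by 0.87 ± 0.0905 with ATRA (1.83-fold, adjusted p = 2.41e-08). With ATO the difference from untreated was 0.10 ± 0.0902 (adjusted p = 0.398, not called).

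HL-60 held 242, 198 and 233 NAMPT CPM with ATRA plus ATO, 82.7, 86.1 and 85.8 CPM with ATRA, 116, 118 and 119.9 CPM with ATO, and 111, 104 and 117 CPM untreated. The ATRA plus ATO libraries stood above all others and the ATRA libraries below all others. NAMPT rose by 1.03 ± 0.0619 with ATRA plus ATO (2.05-fold, adjusted p = 1.44e-12), fell by 0.38 with ATRA (SE 0.0622, adjusted p = 2.63e-05) and was not called with ATO (0.10 ± 0.0617, adjusted p = 0.231). With ATRA plus ATO it exceeded its level with ATRA alone 2.66-fold (log2 1.41 ± 0.0626, adjusted p = 3.73e-14), in every batch (1.20 to 1.55), and without HL-60 ATRA plus ATO replicate 2 the difference was 1.49 (adjusted p = 5.13e-22).

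In NB4 the comparison of ATRA plus ATO with ATRA gave NAMPT -0.25 ± 0.0894 (adjusted p = 0.0349), a narrow call with overlapping ranges and a difference of 0.01 in batch 3. It was not made with DESeq2 (adjusted p = 0.055), its size factors (0.0556), a filter of 1 CPM (0.0756), halved counts (0.0537) or the 2 groups only (0.155). It was lost without ATRA plus ATO replicate 1 (-0.13, adjusted p = 0.304) or 2 (-0.18, adjusted p = 0.183), without ATRA replicate 2 (-0.21, adjusted p = 0.0775) or 3 (-0.21, adjusted p = 0.0931), and without any 1 of the untreated libraries (-0.23 each, adjusted p from 0.0609 to 0.0654). It was -0.39 (adjusted p = 0.000348) without ATRA plus ATO replicate 3 and -0.10 (adjusted p = 0.425) with library sizes alone. The lines differed in what ATO added to ATRA by -1.62 ± 0.118 (NB4 minus HL-60, adjusted p = 3.66e-12).

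NMNAT1, at chr1:9943428-9985501 on the plus strand, rose modestly with ATRA in both lines. NB4 held 16.7, 17.9 and 18.3 CPM with ATRA plus ATO, 14.0, 14.5 and 14.8 CPM with ATRA, 13.5, 12.0 and 12.9 CPM with ATO, and 11.3, 11.4 and 12.4 CPM untreated. HL-60 held 19.7, 17.6 and 18.0 CPM with ATRA plus ATO, 16.7, 16.9 and 15.4 CPM with ATRA, 14.8, 14.1 and 15.8 CPM with ATO, and 12.3, 11.2 and 12.4 CPM untreated. In both lines ATRA plus ATO was highest and clear of the rest, and untreated was lowest, overlapping ATO in NB4.

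NMNAT1 rose with ATRA plus ATO by 0.58 ± 0.0915 in NB4 (adjusted p = 7.17e-06) and by 0.64 ± 0.0877 in HL-60 (adjusted p = 1.32e-06). With ATRA alone it rose by 0.32 ± 0.0926 in NB4 (adjusted p = 0.00451) and by 0.46 ± 0.0872 in HL-60 (adjusted p = 0.000128). ATO alone gave a call in HL-60 (0.33 ± 0.0876, adjusted p = 0.00641) and not in NB4 (0.11 ± 0.0923, adjusted p = 0.348), and that difference between the lines was itself not called (adjusted p = 0.363). The NB4 value with ATRA plus ATO exceeded that with ATRA by 0.26 ± 0.0908 (adjusted p = 0.0292), a call lost without ATRA plus ATO replicate 2 (adjusted p = 0.0656) or 3 (adjusted p = 0.0636) or ATRA replicate 1 (adjusted p = 0.0815), and at 0.40 with library sizes alone.

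NAPRT, at chr8:143574785-143578649 on the minus strand, changed in opposite directions in the lines with the drug pair. NB4 held 6.96, 8.77 and 7.05 CPM with ATRA plus ATO, 7.36, 4.98 and 6.94 CPM with ATRA, 6.01, 6.78 and 7.63 CPM with ATO, and 3.67, 4.44 and 4.94 CPM untreated. Every treated library lay above every untreated one. The rises were 0.79 ± 0.162 with ATRA plus ATO (adjusted p = 0.000165), 0.58 ± 0.164 with ATRA (adjusted p = 0.00415) and 0.63 ± 0.162 with ATO (adjusted p = 0.00354). Without NB4 ATRA replicate 2 the rise with ATRA was 0.72 (adjusted p = 0.000302).

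HL-60 held 11.4, 15.4 and 11.3 NAPRT CPM with ATRA plus ATO, 24.4, 20.8 and 22.4 CPM with ATRA, 26.97, 25.6 and 27.8 CPM with ATO, and 22.4, 18.9 and 15.6 CPM untreated. The ATRA plus ATO libraries were lowest and those with ATO highest, with replicate 2 the highest of the ATRA plus ATO group. NAPRT fell with ATRA plus ATO (-0.55 ± 0.122, adjusted p = 0.000461, and -0.72 without that replicate), rose by 0.51 ± 0.116 with ATO (adjusted p = 0.00184) and was not called with ATRA (0.26 ± 0.117, adjusted p = 0.0733). The ATRA comparison stayed uncalled in 8 of 11 alternative settings and in 10 of 12 fits with a library left out (values down to 0.13, adjusted p up to 0.379). It was called with limma-voom (0.27, adjusted p = 0.0463), with genes of at least 1 read kept (0.26, adjusted p = 0.0218) and in a fit of its 2 groups only (0.26, adjusted p = 0.031). Leaving out HL-60 ATRA plus ATO replicate 2 (0.26, adjusted p = 0.0193) or untreated replicate 1 (0.39, adjusted p = 0.0134) also gave the call. Untreated NB4 held 0.23-fold the NAPRT of untreated HL-60 (log2 -2.12 ± 0.153, adjusted p = 1.55e-13).

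**Figure D2:**
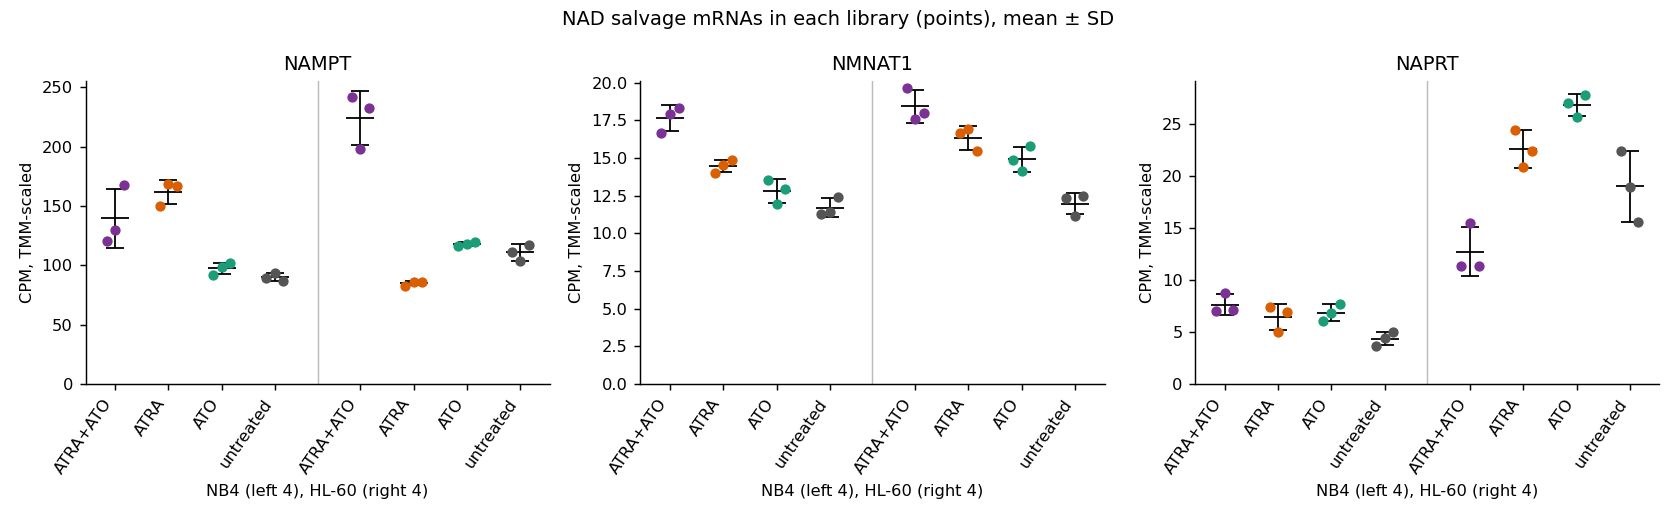
NAMPT, NMNAT1 and NAPRT in CPM on linear axes from 0 for each library (points) with group means and SDs (bars), NB4 groups in the left 4 positions and HL-60 groups in the right 4. In HL-60, ATRA plus ATO carries the highest NAMPT (198 to 242 CPM) and the lowest NAPRT (11.3 to 15.4 CPM).

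Over the 8 groups, the mean CD38 level ran from NB4 with ATRA plus ATO through NB4 with ATRA, HL-60 with ATRA, HL-60 with ATRA plus ATO, untreated NB4, NB4 with ATO and untreated HL-60 down to HL-60 with ATO. In that order only untreated NB4 and NB4 with ATO overlapped. NAMPT was highest in HL-60 with ATRA plus ATO and lowest in HL-60 with ATRA, and its overlapping neighbours were NB4 with ATRA beside NB4 with ATRA plus ATO, HL-60 with ATO beside untreated HL-60, and NB4 with ATO beside untreated NB4. For NMNAT1 the order broke into 2 blocks, within which neighbours overlapped, the lower one holding NB4 with ATO and both untreated groups. For NAPRT all HL-60 groups lay above all NB4 groups.

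The interaction asks whether the change with both drugs differs from the sum of the 2 single-drug changes on the log2 scale. Because the doses within the pair are not in the labels, a departure from that sum in either line cannot be told apart from a dose difference. In HL-60, 1 of the 5 genes was higher (14.4% of all genes) and 3 were lower (18.1%) than that sum, where 32.5% of all genes were called. NAMPT lay above it by 1.31 ± 0.0875 (adjusted p = 2.01e-10). CD38 (-0.49 ± 0.0994, adjusted p = 0.00054), BST1 (-0.84 ± 0.123, adjusted p = 1.54e-05) and NAPRT (-1.32 ± 0.168, adjusted p = 2.41e-06) lay below it, and NMNAT1 was not called (-0.15 ± 0.123, adjusted p = 0.381). NAMPT thus sat above, and NAPRT and the ectoenzymes below, additivity in the same HL-60 libraries.

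In NB4, 1 of the 5 genes had a called interaction, above the sum (6.14% of all genes above, 12.5% below, 18.7% in all). It was CD38, 0.23 ± 0.0793 (adjusted p = 0.0424), and the call was lost with the batch as a block (adjusted p = 0.0691) and with genes of at least 1 read kept (0.051). It was lost as well without any 1 of 7 libraries, which were ATRA plus ATO replicates 2 and 3 (adjusted p = 0.0506 and 0.057), ATRA replicate 1 (0.0721), ATO replicates 1 and 3 (0.116 and 0.126) and untreated replicates 1 and 2 (0.0683 and 0.0556), with log2 values from 0.21 to 0.25. NAMPT missed the threshold (-0.35 ± 0.127, adjusted p = 0.0613) and was called with the batch as a block (adjusted p = 0.0415), with limma-voom (0.0447), with genes of at least 1 read kept (0.0142), in a fit of all 24 libraries (0.0451) and without ATRA plus ATO replicate 3 (-0.49, adjusted p = 0.00142). NAPRT, at -0.42 ± 0.227 (adjusted p = 0.223), was called without ATRA replicate 2 (-0.57, adjusted p = 0.0476).

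Against ATRA alone, ATRA plus ATO gave 1 higher (16.8% of all genes) and 1 lower (21.2%) member in NB4, with 38% of genes called, and 1 higher (22%) and 3 lower (21.9%) in HL-60, with 43.9% called. NAPRT was the third lower member in HL-60, at -0.81 ± 0.121 (adjusted p = 9.23e-06). Against ATO alone it gave 3 higher (28.6%) and 0 lower (28.3%) in NB4, with 56.9% called, and 4 higher (27.5%) and 1 lower (27%) in HL-60, with 54.5% called. These comparisons share the ATRA plus ATO libraries with those against untreated cells. CD38 led both against ATO, at 3.01 ± 0.0601 in NB4 and 3.45 ± 0.0738 in HL-60 (adjusted p = 2.46e-20 and 1.87e-20).

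**Figure D3:**
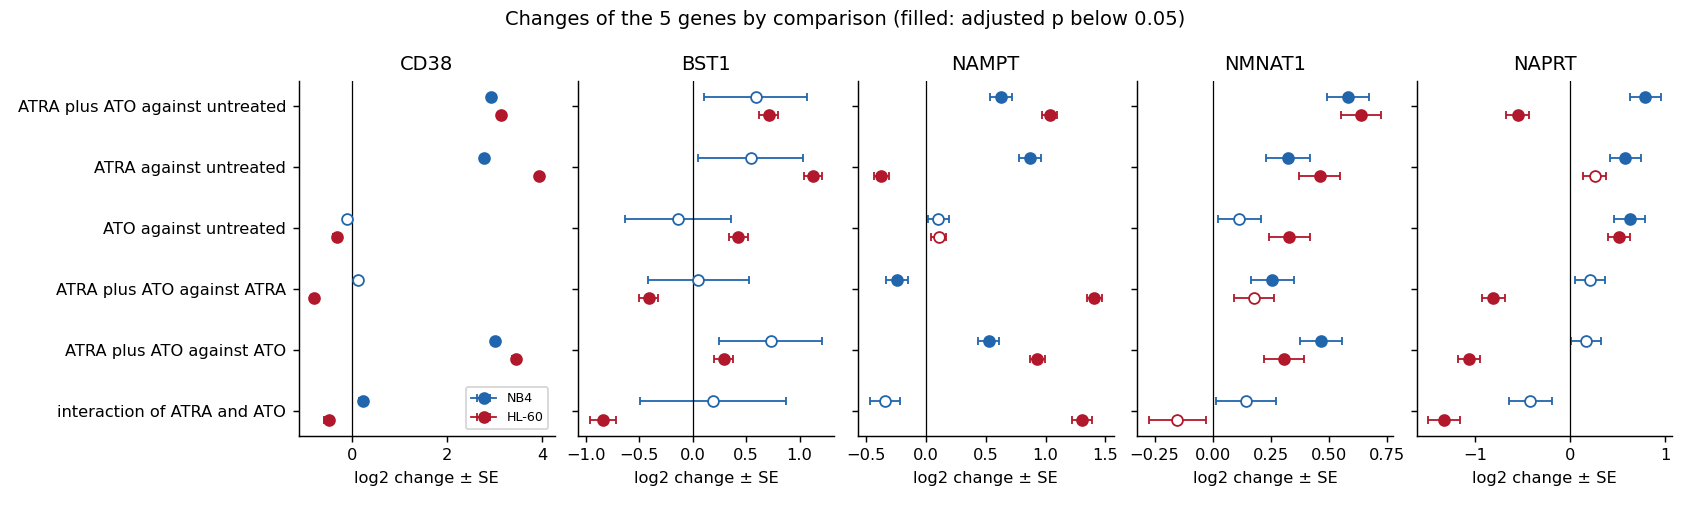
Log2 change ± SE (horizontal axes, scaled per gene) of each gene in 6 comparisons (rows), NB4 in blue and HL-60 in red, filled where the adjusted p lay below 0.05. CD38 lies far to the right in every comparison of an ATRA-containing group with a group lacking ATRA, whereas NAMPT and NAPRT take opposite sides in the lines in several rows.

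Differences between the lines were tested in a fit of all 24 libraries. The ATRA response differed for 2 of the 5 genes, 1 higher (17.7% of 17930 genes) and 1 lower (16.8%) in NB4, with 34.5% called. The CD38 change was smaller in NB4 by -1.17 ± 0.0875 (adjusted p = 2.3e-12) and the NAMPT change larger by 1.24 ± 0.118 (adjusted p = 5.3e-10). The ATO response differed for 0 of the 5 by edgeR (13.1% of genes called, 7.11% higher and 6% lower), and for none by DESeq2 or limma-voom. CD38, at 0.24 ± 0.0924 (adjusted p = 0.0869), was the 1 gene of the 5 below 0.05 before adjustment, and it was called with library sizes alone (0.30, adjusted p = 0.0235).

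The response to ATRA plus ATO differed for 2 of the 5 genes, 1 higher (24.9%) and 1 lower (22.7%) in NB4, with 47.5% called. The NAPRT change was larger in NB4 by 1.37 ± 0.21 (adjusted p = 1.97e-06) and the NAMPT change smaller by -0.38 ± 0.117 (adjusted p = 0.00745). With library sizes alone the NAMPT difference was -0.24 (adjusted p = 0.102). CD38 was not called (-0.19 ± 0.0876, adjusted p = 0.0697). It stayed uncalled in 8 of 10 alternative settings (values up to -0.057, adjusted p up to 0.639) and in 21 of 24 fits with a library left out. The CD38 call was made with DESeq2 (-0.20, adjusted p = 0.0381) or with genes of at least 1 read kept (adjusted p = 0.0442). It was also made without NB4 ATRA plus ATO replicate 3 (-0.23, adjusted p = 0.0407), HL-60 ATO replicate 3 (-0.20, adjusted p = 0.0312) or HL-60 untreated replicate 2 (-0.25, adjusted p = 0.0275). In what ATO added to ATRA, 2 members were higher (15.3%) and 1 lower (16%) in NB4 than in HL-60, where 31.4% of genes were called, with NAPRT at 1.06 ± 0.206 (adjusted p = 0.000143) beside CD38 and NAMPT. Between untreated lines, 1 member was higher (29.1%) and 3 were lower (34%) in NB4, where 63.2% of genes were called, and the smallest of these, NAMPT at -0.30 ± 0.0835 (adjusted p = 0.00217), was not called with library sizes alone (-0.15, adjusted p = 0.124).

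Marker genes were summed to set the levels of the 5 genes beside cell identity. The promyelocytic granule genes MPO, ELANE, PRTN3, AZU1 and CTSG, of which MPO made up most of the sum in NB4, summed in NB4 to 2066 to 2742 CPM with ATRA plus ATO, 5934 to 6601 with ATRA, 7581 to 7639 with ATO and 9097 to 9777 untreated. In HL-60 they summed to 143 to 191 CPM with ATRA plus ATO, 1134 to 1255 with ATRA, 1891 to 2015 with ATO and 3580 to 4045 untreated. With ATRA plus ATO, 1 of 4 tested granule genes rose and 3 fell in NB4, and all 5 fell in HL-60. Of all genes tested, 35.4% rose and 32.8% fell in NB4 with the pair, and 30.7% and 29.7% in HL-60. With ATRA alone, 2 of the 4 tested granule genes rose and 2 fell in NB4 (31.3% and 28.6% of all genes). PRTN3 (proteinase 3) then averaged 1502 ± 138 CPM, against 373 ± 28.3 CPM untreated, and MPO (myeloperoxidase) 4690 ± 231 CPM, against 8766 ± 349 CPM untreated. The mature myeloid genes ITGAM, ITGAX, FCGR1A and CD14 summed in NB4 to 571 to 602 CPM with ATRA plus ATO, 367 to 475 with ATRA, 66.0 to 70.8 with ATO and 27.0 to 30.2 untreated. In HL-60 they summed to 147 to 150.2 CPM with ATRA plus ATO, 166 to 186 with ATRA, 82.1 to 89.3 with ATO and 74.5 to 81.9 untreated. With ATRA plus ATO 3 of the 4 rose and 1, FCGR1A, fell in each line. FCGR1A averaged 30.2 ± 0.89 CPM with the pair in HL-60, against 64.9 ± 2.75 untreated, where it made up most of the sum. In NB4 it averaged 7.68 ± 0.659 CPM against 15.9 ± 1.23. In both lines the mature sum, like CD38, was highest in the ATRA-containing groups, and its part in the CD38 result was not tested.

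CD38 is also a plasma cell antigen, so B and plasma cell genes were read beside it, gene by gene. CD79A, a chain of the B cell receptor complex, stood in NB4 at 31.5 to 35.1 CPM with ATRA plus ATO, 9.23 to 11.8 with ATRA, 6.59 to 7.68 with ATO and 1.68 to 1.85 untreated. It rose in all 3 NB4 treatments (4.23 ± 0.126 with ATRA plus ATO, 2.63 ± 0.128 with ATRA and 1.99 ± 0.13 with ATO). In HL-60 it reached 2.74 to 2.92 CPM with ATRA plus ATO against 0.694 to 0.734 untreated. The plasma cell proteoglycan gene SDC1 averaged 9.21 ± 1.31 CPM in NB4 with ATRA plus ATO, 21.1 ± 0.748 with ATRA, 4.58 ± 0.499 with ATO and 6.15 ± 0.412 untreated (SD, n = 3 each), so it was higher in both ATRA-containing groups and lower with ATO (-0.44 ± 0.126, adjusted p = 0.00732). TNFRSF17, a plasma cell receptor gene, stayed below 1 CPM in every library, and MS4A1 was at 0 in all 24 libraries. CD79A and SDC1, like CD38, were thus above untreated in the ATRA-containing NB4 groups. SDC1 averaged less with ATRA plus ATO than with ATRA, and CD79A also rose with ATO alone, where CD38 was not called. The part of CD79A and SDC1 in the CD38 result was not tested. The globin genes HBB and HBA1 were at 0 throughout. T and NK cell genes summed to 0.818 to 6.92 CPM. Stromal genes summed to 0.101 to 4.08 CPM, with COL1A2 at 0 and PDGFRB in NB4 at 3.30 ± 0.779 CPM with ATRA plus ATO against 0.413 ± 0.0423 untreated. Epithelial genes summed to 0.227 to 14.4 CPM. Of these, EPCAM averaged 12.1 ± 1.92 CPM in untreated NB4, beside 11.7 CPM for NMNAT1, while KRT18 and CDH1 stayed below 1 CPM.

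Genes that make NAD by other routes were sparse and mixed. Of 14 listed genes, 7 were tested in NB4, with 5 higher and 1 lower after ATRA plus ATO, 3 higher and 2 lower after ATRA, and 3 higher and 0 lower after ATO. In HL-60, 11 were tested, with 6 higher and 4 lower after ATRA plus ATO, 6 and 4 after ATRA, and 4 and 1 after ATO. Of all genes tested in NB4, 35.4% were higher and 32.8% lower after ATRA plus ATO. ATRA gave 31.3% and 28.6%, and ATO 21.2% and 19.6%. HL-60 shares, in the same order, were 30.7% and 29.7%, 25.2% and 23.3%, and 16.5% and 12.1%. Over 22 alternatives, the higher genes numbered 3 to 6 after ATRA and 4 to 6 after ATRA plus ATO in HL-60, and 3 to 5 after ATO in NB4. The median change with ATRA plus ATO was 0.86 in NB4, against 0.050 over all genes tested, and 0.36 in HL-60, against -0.0027. In HL-60, TDO2, KYNU and NMRK2 averaged at most 0.0488 CPM untreated and passed the filter only through treated groups. The direction of their change was thus fixed by the filter, and the HL-60 counts and median above include these genes. NADSYN1, the glutamine-dependent NAD synthetase that completes the nicotinic acid route after NAPRT, stood in NB4 at 163 ± 7.5 CPM with ATRA plus ATO, against 85.4 ± 5.27 CPM untreated (0.92 ± 0.0727), and also rose with ATRA (1.10 ± 0.073). In HL-60 its rise with ATRA plus ATO was 0.16 ± 0.064 (adjusted p = 0.0344), lost without HL-60 ATRA plus ATO replicate 2 (adjusted p = 0.299), ATO replicate 2 (adjusted p = 0.051) or untreated replicates 2 or 3 (adjusted p = 0.0795 and 0.154), with library sizes alone (adjusted p = 0.302) and in fits of all 24 libraries or of the 2 groups only.

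NMRK1, the nicotinamide riboside kinase, rose with ATRA plus ATO in both lines (1.65 ± 0.254 in NB4 and 1.12 ± 0.212 in HL-60). The kynureninase gene KYNU, of the route from tryptophan, was scarce. In NB4 it rose to 2.77 ± 0.832 CPM with ATRA plus ATO, against 0.355 ± 0.259 untreated. In HL-60, where the filter fixed its direction, it stood at 1.03 ± 0.181 against 0.0169 ± 0.0292 CPM. AFMID, which hydrolyses formylkynurenine, fell in both (-0.55 ± 0.0981 in NB4 and -0.64 ± 0.0862 in HL-60). Of further kynurenine pathway genes in HL-60, the monooxygenase gene KMO reached 3.83 ± 0.252 CPM with ATRA plus ATO against 0.814 ± 0.169 untreated. The dioxygenase gene TDO2, whose direction the filter fixed there, stood at 2.54 ± 0.811 against 0.0488 ± 0.0479 CPM. QPRT, which makes nicotinic acid mononucleotide from quinolinate, rose with ATRA plus ATO in NB4 (0.38 ± 0.0996) and fell in HL-60 (-0.52 ± 0.0562). The mitochondrial adenylyltransferase gene NMNAT3 had 0 reads in all NB4 libraries and fell in HL-60 to 2.56 ± 0.242 CPM with ATRA plus ATO, against 9.17 ± 0.484 untreated. IDO1, IDO2 and ACMSD passed the filter in neither line.

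Among 24 intracellular NAD consumers, 23 were tested in each line. ATRA plus ATO gave 13 higher and 5 lower in NB4 and 12 higher and 7 lower in HL-60. ATRA gave 10 and 5 in NB4 and 9 and 4 in HL-60, and ATO gave 9 and 4 in NB4 and 8 and 2 in HL-60. Over all genes, the pair gave 35.4% higher and 32.8% lower in NB4, and 30.7% and 29.7% in HL-60. ATRA gave 31.3% and 28.6% in NB4 and 25.2% and 23.3% in HL-60. ATO gave 21.2% and 19.6% in NB4 and 16.5% and 12.1% in HL-60. Over 22 alternatives, the higher genes numbered 9 to 12 after ATRA plus ATO in HL-60 and 7 to 11 after ATO in NB4. The median change with ATRA plus ATO was 0.66 in NB4 and 0.24 in HL-60. The mono-ADP-ribosyltransferase family genes PARP14, PARP9 and PARP10 led in NB4. PARP14 stood at 41.4 ± 2.84 CPM with ATRA plus ATO, 31.0 ± 2.74 with ATRA and 5.70 ± 0.582 with ATO, against 1.21 ± 0.677 CPM untreated. The NB4 changes with ATRA plus ATO were 5.10 ± 0.19 for PARP14, 2.37 ± 0.0826 for PARP9 and 2.14 ± 0.107 for PARP10, and in HL-60 they were 1.28 ± 0.0678 for PARP14, 1.03 ± 0.085 for PARP9 and 0.43 ± 0.108 for PARP10.

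PARP4, the vault-associated member, rose in both lines (1.05 ± 0.0541 in NB4 and 0.29 ± 0.0453 in HL-60). So did PARP12 (0.90 ± 0.0933 in NB4 and 1.70 ± 0.0908 in HL-60). TIPARP, a target of the aryl hydrocarbon receptor, rose in HL-60 (1.68 ± 0.0684) and was at 0.17 ± 0.0925 in NB4 (not called). PARP1, the DNA-break sensor and a large consumer of nuclear NAD, fell with ATRA plus ATO in both lines, at -0.99 ± 0.0576 in NB4 and -1.09 ± 0.0379 in HL-60. PARP15 passed the filter in neither line.

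Genes of NAD phosphorylation, transport and disposal moved both ways. Of 13 listed genes 8 were tested in each line, with 4 higher and 3 lower in NB4 and 4 higher and 4 lower in HL-60 after ATRA plus ATO. ATRA gave 5 and 2 in NB4 and 4 and 4 in HL-60, and ATO 3 and 2 in NB4 and 1 and 1 in HL-60. Over all genes, the pair gave 35.4% higher and 32.8% lower in NB4, and 30.7% and 29.7% in HL-60. For ATRA the shares were 31.3% and 28.6% in NB4 and 25.2% and 23.3% in HL-60. For ATO they were 21.2% and 19.6% in NB4 and 16.5% and 12.1% in HL-60. Over 22 alternatives, the higher genes in NB4 numbered 3 to 5 after ATRA and 2 to 5 after ATO, and in HL-60 after ATO there were 1 to 2 higher and 1 to 3 lower. The medians with ATRA plus ATO were 0.28 in NB4 and -0.11 in HL-60. The cytosolic NAD kinase gene NADK rose (1.32 ± 0.0664 in NB4 and 0.69 ± 0.0566 in HL-60) while its mitochondrial counterpart NADK2 fell (-1.26 ± 0.076 in NB4 and -0.56 ± 0.06 in HL-60). PNP, which cleaves nicotinamide riboside among other nucleosides, stood in NB4 at 299.9 ± 23.8 CPM with ATRA plus ATO, 676 ± 56.1 with ATRA and 403 ± 12.7 with ATO, against 547 ± 18.3 CPM untreated. It was lower than untreated with the pair (-0.88 ± 0.0672) and higher with ATRA (0.33 ± 0.0666), and in HL-60 it fell with both (-0.90 ± 0.0596 with the pair and -0.28 ± 0.0587 with ATRA). NAXE, which repairs hydrated NADH, fell with the pair in both lines (-0.44 ± 0.0819 in NB4 and -0.65 ± 0.069 in HL-60), and the transhydrogenase gene NNT rose in NB4 (0.26 ± 0.058) and fell in HL-60 (-0.59 ± 0.044). NNMT, SLC25A52, SLC22A13 and SLC5A8 passed in neither line.

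The surface and messenger list joins enzymes that act beside CD38 on extracellular nucleotides with targets of its products. Of 22 genes, 15 were tested in NB4, with 5 higher and 4 lower after ATRA plus ATO, and 13 in HL-60, with 6 higher and 5 lower. ATRA gave 6 and 8 in NB4 and 6 and 4 in HL-60, and ATO 5 and 2 in NB4 and 5 and 0 in HL-60. Over all genes, the pair gave 35.4% higher and 32.8% lower in NB4, and 30.7% and 29.7% in HL-60. For ATRA the shares were 31.3% and 28.6% in NB4 and 25.2% and 23.3% in HL-60. For ATO they were 21.2% and 19.6% in NB4 and 16.5% and 12.1% in HL-60. Over 22 alternatives, HL-60 had 4 to 7 higher after ATRA plus ATO, and 4 to 6 higher and 3 to 6 lower after ATRA, while NB4 had 1 to 2 lower after ATO. ENTPD1 (CD39), which degrades extracellular ATP, stood in NB4 at 77.6 ± 2.92 CPM with ATRA plus ATO against 6.38 ± 0.311 untreated (3.59 ± 0.0888) and rose by 1.17 ± 0.0965 in HL-60. ADA, which deaminates adenosine, rose by 3.04 ± 0.0817 in NB4 and in HL-60 stood at 62.1 ± 6.23 CPM against 22.2 ± 2.33 untreated (adjusted p = 1.22e-13). PECAM1 (CD31), a binding partner of CD38, rose by 2.75 ± 0.0736 in NB4 and 0.59 ± 0.0601 in HL-60. GJA1, a connexin whose hemichannels pass NAD, fell (-2.97 ± 0.102 in NB4 and -2.65 ± 0.299 in HL-60).

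The ATP-gated channel gene P2RX7 fell with ATRA plus ATO in HL-60 (-1.46 ± 0.0966) and was at -0.65 ± 0.413 in NB4, not called. TPCN1, an endolysosomal channel, rose in HL-60 (0.55 ± 0.0421) and fell in NB4 (-0.33 ± 0.0725). The medians of the list with the pair, -0.076 in NB4 and -0.11 in HL-60, lay near those of all genes. HCAR2 and HCAR3 in NB4 and HCAR3 and NT5E in HL-60 averaged at most 0.0547 CPM untreated. They passed the filter only through treated groups, which fixed the direction of their change. ENPP1, ART1, ART4, ART5, RYR1 and RYR3 passed the filter in neither line.

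**Figure D4:**
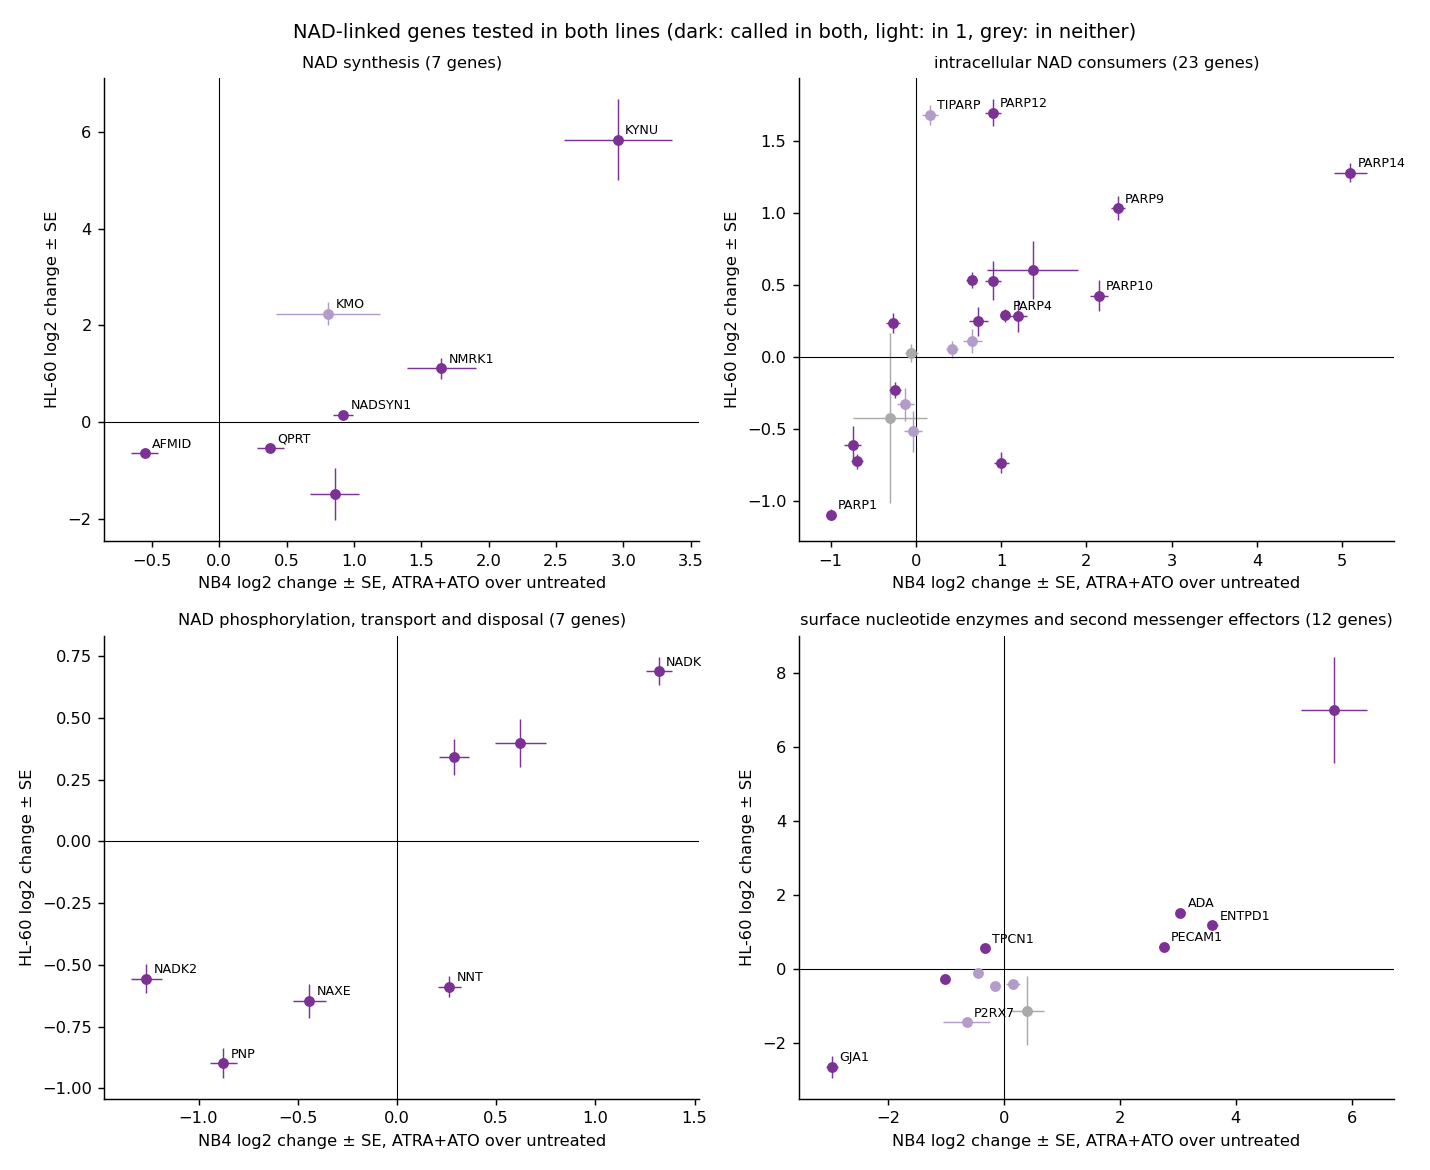
Log2 change ± SE with ATRA plus ATO over untreated in NB4 (horizontal) and HL-60 (vertical) for the genes of 4 NAD-linked lists tested in both lines, with labels on the genes named in the text. PARP14, ENTPD1, ADA and KYNU lie at the upper right and PARP1 and GJA1 at the lower left. The unlabelled point at the far upper right, HCAR3, had 0 reads in untreated HL-60, so its fitted HL-60 change depends on the prior count. The filter on low counts fixed the direction of the HL-60 changes of KYNU and HCAR3.

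Changes of the tested neighbours of CD38 and BST1 against untreated cells were all under 1 log2 unit. Of 7 listed genes of the region 3 were tested. With ATRA plus ATO, FBXL5 rose by 0.80 ± 0.0774 in NB4 and 0.62 ± 0.0566 in HL-60. TAPT1 was at 0.15 ± 0.0812 in NB4 (not called) and rose by 0.47 ± 0.0728 in HL-60, and FAM200B was not called in either line (-0.012 ± 0.166 in NB4 and 0.019 ± 0.129 in HL-60). CC2D2A, FGFBP1, FGFBP2 and PROM1 were not tested.

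For each of the 5 genes the 3 most similar protein-coding genes were taken by Pearson's r of log2 CPM over the 24 libraries, among 9560 genes with a mean of at least 5 CPM. These libraries share lines, treatments and batches, so r is a description. CD38 was closest to ABCA1 (0.964), FBN1 (0.959) and MACO1 (0.958), with r for ABCA1 of 0.987 within NB4 and 0.964 within HL-60. BST1 was closest to NAV2 (0.989), FRMD3 (0.984) and PLA2G15 (0.982), with r within NB4, where BST1 reads were few, of 0.672, 0.604 and 0.445, and within HL-60 of 0.969, 0.819 and 0.852. NMNAT1 was closest to ZFAND3 (0.945), CFLAR (0.937) and YPEL5 (0.934), and NAPRT to EEF2 (0.981), ZYX (0.976) and RHOBTB2 (0.973). NAMPT had the weakest likeness over the 24 libraries, with MAGT1 (0.866), AHR (0.857) and PPP1R15A (0.848). Within HL-60 these were 0.953, 0.903 and 0.954, and within NB4 0.801, 0.925 and 0.654.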

How the data were processed

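Messenger RNA of 24 libraries was measured by poly(A)-enriched paired-end sequencing, per the labels' protocols. The authors deposited raw counts per gene. The submitters' processing notes name fastp, HISAT2, featureCounts, DESeq2 and GRCh38, without roles or versions. The sources used here give no strandedness and no counting unit (mates or fragments). Even numbers made up 74.4% of counts of 1 to 9, against 51.5% of high counts, so halved counts were tried. Overlapping antisense genes of NAMPT and NAPRT held at most 16 counts per library, and the pseudogene NAMPTP1 0.209% of the NAMPT total. Of 60655 gene IDs, 60444 were named and 58437 were in GENCODE v29.

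Groups came from the sample titles. Counts were tested with edgeR 4.0.16 (R 4.3.3): filterByExpr, TMM, quasi-likelihood F tests, Benjamini-Hochberg adjustment over all genes tested. Each line was fitted with its 12 libraries (8 residual degrees of freedom, biological coefficient of variation 8.78% in NB4 and 7.0% in HL-60), and differences between lines with all 24 libraries (16 residual degrees of freedom, 7.98%). Depth, 37811652 to 57795273 counts per library, limits precision for genes with few reads. There were 16 comparisons, and what ATO adds to ATRA between the lines was added after seeing the data. Log2 CPM used a prior count of 2. Before use, the fits were tested on simulated data with the same spread for every gene and few changed genes, a simpler setting than these libraries.

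Pathway genes are named where they were among the 4 smallest p-values of their list with ATRA plus ATO in either line, or passed the filter in neither, and neighbours where tested. The members and lists were chosen with earlier results of these data known. Batch numbers come from the labels. Libraries sharing a number had residual correlations between -0.0822 and 0.0388 (NB4, 18 pairs) and between -0.00821 and 0.0583 (HL-60, 18 pairs). Batch therefore stayed out of the model and was tried as a replicate block. Other alternatives were DESeq2 1.42.0, limma-voom (limma 3.58.1), DESeq2 size factors, library sizes alone, filters at 1 read or at 1 CPM in at least 3 libraries, an adjusted p below 0.01, all 24 libraries, only the groups compared, and each library left out. Replicates of a group differed by more than sampling noise (chi-square per degree of freedom 4.77 to 39.3). Figures were drawn with Python 3.11.15 and matplotlib 3.10.9. No library was left out of the main results. Some marker genes are not reported here.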

Additional observations from a re-analysis of the deposited data

Results flagged for a closer look

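Results here were marked because the same contrast differed between the lines in an edgeR quasi-likelihood test of the difference itself over all 24 libraries (log2, NB4 minus HL-60, n = 3 libraries per group). The ATRA response differed by -1.17 for CD38 (adjusted p = 2.3e-12), with rises in both lines. For NAMPT it differed by 1.24 (adjusted p = 5.3e-10), with a rise in 3 of 3 NB4 batches and a fall in 3 of 3 HL-60 batches. The ATRA plus ATO response differed by -0.38 for NAMPT (adjusted p = 0.00745) and by 1.37 for NAPRT (adjusted p = 1.97e-06), NAPRT rising in 3 of 3 NB4 batches and falling in 3 of 3 HL-60 batches. What ATO added to ATRA differed by 0.98 for CD38 (adjusted p = 1.03e-10), by -1.62 for NAMPT (adjusted p = 3.66e-12) and by 1.06 for NAPRT (adjusted p = 0.000143). The doses within the pair are not in the labels.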

How the results depend on the processing

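Of 85 results for the 5 genes in the comparisons above, 52 were called, and 44 of these kept their direction and call under all alternatives run. No called result changed direction. Across 2214 alternative values, 2121 kept direction and side of the threshold, 34 lost a call and 30 gained one. The count of genes called changed by over 1.5 times only with an adjusted p below 0.01, where it came to 1824 for the NB4 interaction, 3020 for HL-60 ATO against untreated and 1344 for the ATO response between lines. The replicate block changed only the NB4 interaction calls of CD38 (0.23, adjusted p = 0.0691) and NAMPT (-0.35, adjusted p = 0.0415).

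Values that changed sign all belong to results that were not called. In NB4 ATO against untreated, BST1 was 0.0045 with limma-voom and -0.55 to 0.22 with a library left out, and CD38 was 0.0052 with library sizes alone. With a library left out, NB4 BST1 ran from -0.26 to 0.39 in ATRA plus ATO against ATRA and from -0.15 to 0.62 in the interaction. Between untreated lines, NMNAT1 was 0.0062 with DESeq2, 0.0048 with its size factors and 0.12 with library sizes alone. In the ATRA plus ATO response between lines, BST1 was 0.036 with limma-voom, 0.024 with library sizes alone and -0.51 to 0.23 with a library left out, and NMNAT1 was 0.11 with library sizes alone, 0.0014 with at least 1 CPM in 3 libraries and -0.062 to 0.020 with a library left out. NAMPT in the ATO response between lines was -0.014 with at least 1 read and -0.020 to 0.063 with a library left out. The BST1 difference between lines in the ATRA response was called without NB4 untreated replicate 1 (-1.01, adjusted p = 0.0224).

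Library sizes alone moved the median gene by 0.107 in NB4 ATO, 0.144 in NB4 ATRA plus ATO against ATRA, -0.101 in HL-60 ATRA plus ATO against ATO, 0.136 in the ATRA plus ATO response between lines, 0.145 in what ATO added to ATRA between lines and 0.15 between untreated lines. Of called genes, the share with a higher level became 69% (main 51.9%), 68.4% (44.3%) and 39.6% (50.5%) in the first 3, 70.4% (54.2%) in the ATO response between lines and 68.8% (48.9%) in what ATO added. Of 168 results for named pathway and neighbour genes, no called one reversed, and 55 of 3855 alternative values lost a call. Low depth limits BST1 in NB4, which has no value in the NB4 fit with at least 1 CPM in 3 libraries. The causes of these shifts were not tested.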
